A study of Mus musculus with 9 samples.

Results

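Epiblast stem cells (EpiSCs) of the mouse given IWP2 were compared with EpiSCs given vehicle across all genes, to describe which transcription factors, cell-surface genes, secreted factors and functions moved when Wnt secretion was blocked. The groups were taken from the sample titles, and 6 of the 9 arrays of the study belong to them, 3 per group. The other 3 arrays hold embryonic stem cells (ESCs), which entered the fit for its estimate of the spread and no comparison. Every EpiSC culture carried the C57BL/6 strain label and grew on gelatine and serum in N2B27 medium with ActivinA at 20 ng/ml and bFGF, a fibroblast growth factor, at 12 ng/ml, so both groups kept these factors throughout. The treatment protocol also mentions Wnt3a added after IWP2, and no array title names it. Neither the dose and duration of IWP2 nor the vehicle's solvent and the number of EpiSC lines are stated by the labels. The labels call the replicates biological without saying what was separate between them, so p-values measure the spread between these samples, which may in part be technical.

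Wnt proteins are secreted only after the enzyme Porcupine (Porcn) has attached a lipid to them, and the carrier Wntless (Wls) takes the lipidated protein to the surface. IWP2 blocks Porcupine, so that cells neither signal to themselves nor to their neighbours by Wnt. EpiSCs stand for the pluripotent epiblast after implantation, and their cultures are known to hold cells that express genes of the primitive streak, the node and the endoderm, a state to which Wnt signalling contributes in the embryo.

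Signals are log2 values of Affymetrix arrays of the mouse genome, on which many genes have several probe sets. Each of 18193 genes was read from 1 probe set, that of the highest mean signal across the 9 arrays. Arrays of one group correlated at 0.997 to 0.998 and arrays of different groups at 0.982 to 0.985. A gene is called where its limma p, adjusted by the method of Benjamini and Hochberg over all genes, is under 0.05. Arrays carry no read depth, and the precision is limited by their number and by the floor of the array: the lower quartile of all values was 3.72, and differences near or below it are compressed. RNA quality signs differed between the groups. The actin control sets gave a 3' minus 5' difference of 0.53 to 0.59 log2 on vehicle arrays and 0.64 to 0.69 on IWP2 arrays, and the part of this in small differences was not tested.

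The pluripotency genes Pou5f1 and Nanog stayed high in both groups. Pou5f1, which encodes Oct4, was at 11.27, 11.37 and 11.26 on the vehicle arrays and at 11.78, 11.54 and 11.52 on the IWP2 arrays. Nanog was at 10.34, 10.08 and 10.27 with vehicle and at 10.67, 10.70 and 10.72 with IWP2. Both were a little higher on all 3 IWP2 arrays. The EpiSC markers did not move together. Of 16 measured, 6 were called higher (37.5%, against 16.6% of all genes) and 5 lower (31.2%, against 16.8%). Fgf5 (-2.48) and Cdh2 (-1.42) were among the falls. Zfp42, the gene for the naive-state marker Rex1, lay between 2.40 and 2.59 on all 6 arrays, below the lower quartile of the array. The enzyme that IWP2 blocks is not itself a measure of the block. Porcn fell by 0.998 ± 0.095 (log2 difference ± SE) and Wls by 1.01 ± 0.121.

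IWP2 moved many genes a little and few genes far. Of the genes tested, 33.5% were called in either direction, 16.6% higher and 16.8% lower with IWP2. The called rises had a median of 0.37 log2 and the called falls one of 0.41, sizes that are under 2-fold. Far changes were mostly falls. At least 2-fold, 164 genes rose (0.901% of those tested) and 512 fell (2.81%). At least 4-fold, 16 rose and 162 fell, and at least 8-fold, 1 rose and 70 fell. Of the 512 falls, 103 ended below the lower quartile of the array, so their size is a lower limit. With an offset of 32 added on the linear scale, which shrinks changes of low signals, 84 genes rose and 263 fell at least 2-fold. The 3 arrays of one group did not overlap those of the other for 47.0% of all genes, and for every gene changed at least 2-fold. In these bulk samples, fewer cells that express a gene and less of its RNA per cell cannot be told apart.

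The far falls were spread unevenly over the kinds of gene. Among 676 measured transcription factors, 9.62% were called and changed at least 2-fold, 10 higher and 55 lower, against 3.72% of all genes. Of 906 genes for secreted factors, 9.16% did so, 14 higher and 69 lower. Of 1468 genes for cell-surface proteins, 5.86% did so, 18 higher and 68 lower. The 15143 genes in none of these classes gave 2.92%, 122 higher and 320 lower. With the offset of 32 the falls numbered 36, 39 and 42 in these 3 classes. The picture was different without the size limit, where 37.6% of transcription factors, 28.5% of surface genes and 26.7% of secreted factor genes were called, against 33.5% of all genes. The classes also differed in signal. A mean at or above the overall median in either group was reached by 11172 of 18193 genes. For transcription factors this was 365 of 676, for surface genes 611 of 1468 and for secreted factor genes 314 of 906. The part of signal level in the called shares was not tested. The classes were drawn up from families of gene symbols and share no gene, but they are not complete: Nt5e, an ectoenzyme anchored at the surface, is counted outside them.

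**Figure D1:**
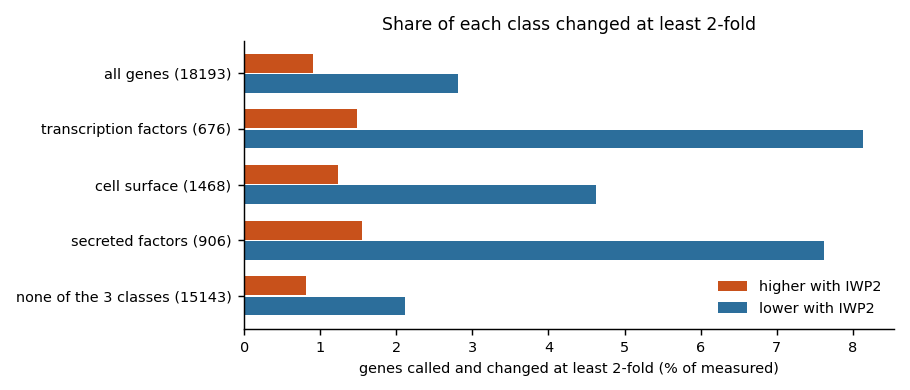
The bars give the percentage of measured genes (x axis) that were called and changed at least 2-fold, higher (orange) or lower (blue) with IWP2, for all genes and each class, with the number measured in brackets. Lower bars are longer than higher bars in every class, with 8.14% of transcription factors and 7.62% of secreted factor genes lower against 2.81% of all genes.

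Leading genes of each class are the 8 largest changes per direction among genes called without overlap and with a mean of at least 5.24, the median of all values, in the higher group. Probe sets that can bind other transcripts and 20 genes already known as the largest changes, such as Hesx1, Shh and Prox1, were passed over in this ranking. Lack of overlap was thus a condition for the leading genes, and for the leading members named from each list. It is not a separate result for them.

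Leading falls among transcription factors included genes known from the endoderm and the organizer. Foxa1, a forkhead factor that opens chromatin in endoderm, was at 8.19, 8.33 and 8.44 with vehicle and at 3.83, 3.93 and 3.73 with IWP2, a difference of -4.49 ± 0.138. Hhex, a homeobox repressor of anterior endoderm, was at 9.68, 9.66 and 9.63 with vehicle and at 5.59, 5.65 and 5.59 with IWP2. Gsc, the homeobox gene of the organizer, was at 6.50, 6.90 and 6.57 with vehicle and at 2.66, 2.80 and 3.01 with IWP2. The groups lay far apart for all of these, and Foxa1 and Gsc ended near or below the lower quartile of the array. Irx3 (-4.25), Gata6 (-3.99), Eomes (-3.62) and Nkx1-2 (-3.50, called on 1 of 3 probe sets) fell to a like degree, as did Id3 (-3.69), an inhibitor of bHLH factors that BMP signals induce. The limma adjusted p of these 8 genes was 3.68e-07 or smaller.

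Rises among transcription factors were smaller and of another kind. Ets1, an ETS family factor, was at 7.77, 7.53 and 8.03 with vehicle and at 9.35, 9.42 and 9.48 with IWP2, a difference of 1.64 ± 0.162. Sox3, a SoxB1 factor of epiblast and neural progenitors, was at 8.03, 7.68 and 7.97 with vehicle and at 9.23, 9.24 and 9.32 with IWP2. The IWP2 arrays lay closer together than the vehicle arrays for both genes. Both partners of the dioxin receptor complex rose, Arnt by 1.17 ± 0.083 with all 5 probe sets called, and Ahr by 1.10 ± 0.091 with 1 of 2 called. Bhlhe40 (1.20), the zinc finger gene Bcl11b (1.18), the neuroendocrine factor gene Insm1 (0.93) and Twist1 (0.90) completed the 8 leading rises, with a limma adjusted p of 0.000732 or smaller. Myb, whose 3 probe sets were all called higher, rose by 1.29 ± 0.086, but the set used can bind other transcripts.

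Families of factors held changes in both directions. Of 185 homeobox genes measured, 21 rose (11.4%) and 32 fell (17.3%), shares below and near the 16.6% and 16.8% of all genes. At least 2-fold, 15 of them fell (8.11%, against 2.81% of all genes). The falls ran from the anterior genes Hesx1 (-5.45) and Six3 (-1.70) to the motor neuron and notochord gene Mnx1 (-1.52). The other probe sets of Six3, at -0.13 and -0.03, were not called. The 2 members of the list that rose at least 2-fold were Prox1 (2.16) and Nkx2-2 (1.40). The list follows symbol patterns and is not complete, and Pknox2 (1.63), a homeobox gene outside it, also rose. Of 37 forkhead genes, 6 rose (16.2%) and 12 fell (32.4%). At least 2-fold, 6 forkhead genes fell (16.2%) and none rose. Foxn3 had the largest forkhead rise at 0.76, and its 4 probe sets were all called higher, at 0.38 to 0.81. Of 19 Sox genes, 3 rose (15.8%) and 6 fell (31.6%). At least 2-fold, 2 Sox genes fell (10.5%) and 1 rose (5.26%). Sox17, a master gene of endoderm, was at -3.35 and Sox9 at -1.88, whereas Sox4 (0.32) and Sox12 (0.27), factors of neural and mesenchymal progenitors, rose. Among 15 T-box genes 2 fell (13.3%) and 1 rose (6.67%), both under the shares of all genes. Both T-box falls were at least 2-fold, however, which is 13.3% against 2.81% of all genes. Among 8 Gata and Trps genes 3 fell (37.5%) and none rose.

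The nuclear effectors of Wnt signalling moved in opposite directions. Tcf7l2 fell by 2.09 ± 0.077, and its 4 probe sets were all called lower, at -0.66 to -2.14. Lef1, which is itself a Wnt target in many tissues, fell by 1.28 ± 0.106 and its other set by 1.41. Tcf7l1, the Tcf factor that acts chiefly as a repressor in pluripotent cells, was at 9.99, 10.01 and 9.94 with vehicle and at 10.52, 10.41 and 10.36 with IWP2, a rise of 0.45 ± 0.057 (limma adjusted p = 0.00025). All of its IWP2 arrays lay above all vehicle arrays. The receptors moved apart in the same way. Lgr5, a receptor for R-spondins and a Wnt target, was at 7.91, 7.99 and 7.89 with vehicle and at 4.03, 3.74 and 3.87 with IWP2, while its homologue Lgr4 was at 10.45, 10.34 and 10.32 with vehicle and at 11.25, 11.27 and 11.26 with IWP2. The Lgr4 groups did not overlap, and the rise was 0.89 ± 0.057. Both sets of Lgr5 were called lower, but the set not used gave a difference of only -0.32.

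Of 49 measured Wnt feedback and target genes, 23 fell (46.9%, against 16.8% of all genes) and 3 rose. At least 2-fold, 15 fell (30.6%, against 2.81%). Sp5, a zinc finger gene that answers directly to beta-catenin, fell by 1.88, and Tnfrsf19, also called Troy, by 3.80. Axin2, the most used readout, was at 5.84, 5.67 and 5.98 with vehicle and at 5.54, 5.70 and 5.76 with IWP2. Its groups overlapped and it was not called (limma adjusted p = 0.191). The letters CTTTGAT, which Tcf and Lef factors are known to bind, were searched on both strands of the RefSeq promoters of the mouse build GRCm38.p6, from 250 bases before to 50 after a start site. They were present for 3.46% of 14452 genes with a promoter in that table, for 3.62% of the genes that fell at least 2-fold and for 5 of 32 genes of the Wnt list. The 2 of those 5 that were called, both lower, are shown 5′ to 3′ on the gene's strand with the letters or their complement in capitals.
Sp5, chr2:70474799-70474845, plus strand: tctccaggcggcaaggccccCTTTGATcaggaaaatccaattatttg
Tnfrsf19, chr14:61038163-61038209, minus strand: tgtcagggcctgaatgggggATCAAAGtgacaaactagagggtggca
The other 3 genes with these letters, Amotl2 (0.19), Mesp1 (0.13) and Msgn1 (0.10), were not called, and a match is not evidence of binding.

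Leading falls at the cell surface included receptors for guidance, chemokine and growth factor signals, but the families of these receptors did not fall as a whole. Of 42 growth factor receptor kinases 8 rose and 11 fell (26.2%), of 261 G protein-coupled receptors 26 rose and 25 fell (9.58%), and of 21 Eph receptors and ephrins 5 rose and 9 fell (42.9%), against 16.8% lower over all genes. At least 2-fold, 7 receptor kinases fell (16.7%, against 2.81% of all genes) and none rose. For G protein-coupled receptors 8 fell that far (3.07%), and for Eph genes 1 (4.76%). Cxcr4, the receptor that guides endoderm and mesoderm cells along Cxcl12, was at 7.29, 7.39 and 6.97 with vehicle and at 3.47, 3.68 and 3.45 with IWP2, a difference of -3.68 ± 0.143. Ackr3, which takes up the same ligand, was at 6.66, 6.97 and 6.61 with vehicle and at 3.08, 2.77 and 2.90 with IWP2. Both receptors of that ligand ended below the lower quartile of the array. Flt1, a VEGF receptor that traps its ligand, fell by 3.42 ± 0.154, with its 4 probe sets at -2.98 to -3.66. Kit fell by 3.10 ± 0.117, and the gene for its ligand, Kitl, by 2.85 ± 0.145. Ptch1, the hedgehog receptor and itself a hedgehog target, was at 11.55, 11.38 and 11.76 with vehicle and at 8.19, 8.14 and 8.31 with IWP2, a fall that left it well above the median of the array. Flrt3 (-3.43) and Alcam (-3.31, called on all 5 probe sets), both adhesion proteins, completed the 8 leading falls with Lgr5 and Tnfrsf19, with a limma adjusted p of 1.91e-07 or smaller.

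Of 11 semaphorin receptor genes 4 fell (36.4%, against 16.8% of all genes), 1 rose and 6 were not called. The coreceptor gene Nrp1 was at 6.70, 6.79 and 6.48 with vehicle and at 4.01, 3.68 and 3.81 with IWP2. Plxna2, a plexin that pairs with neuropilins, fell by 2.63 ± 0.117, and all 4 probe sets of each gene were called lower. Sema3c, a secreted ligand of this receptor family, was at 7.38, 6.99 and 7.49 with vehicle and at 8.80, 8.79 and 9.08 with IWP2, a rise of 1.60 ± 0.160. The groups did not overlap for any of these 3 genes. The membrane-bound Sema6d fell by 3.64, but only 2 of its 4 probe sets were called lower.

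Some genes of the simple epithelium and of cell junctions fell far. Krt8, a keratin of simple epithelia and one of the most abundant transcripts among those that fell, was at 12.84, 12.70 and 12.92 with vehicle and at 7.95, 8.08 and 8.004 with IWP2. The desmosomal genes Dsp (-3.51) and Dsg2 (-2.95, called on all 6 probe sets) and the claudin genes Cldn4 (-2.86), Cldn7 (-2.25) and Cldn6 (-2.05) fell as well, but of 28 claudin and tight junction membrane genes 5 rose (17.9%) and 6 fell (21.4%), near the shares of all genes. Krt19 fell by 4.50 and Krt18 by 3.15. Epcam, an adhesion protein of epithelia and pluripotent cells, was at 11.93, 11.96 and 11.96 with vehicle and at 11.95, 12.03 and 12.04 with IWP2, with overlapping groups and no call. Over the 65 measured keratin, desmosome and related genes 15 fell (23.1%) and 8 rose, and the rises were all under 2-fold. Amot, a junction protein of the Hippo pathway, was at 12.70, 12.71 and 12.63 with vehicle and at 8.35, 8.33 and 8.28 with IWP2. This was one of the farthest falls of an abundant transcript, and 2 of its 3 probe sets were called lower.

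Leading rises at the surface included genes of channels, transporters and proteins of the neural surface. Kcnq3, a subunit of the neuronal M-current channel, was at 5.30, 5.21 and 5.30 with vehicle and at 7.19, 7.07 and 7.23 with IWP2, a difference of 1.89 ± 0.088. Mme, the membrane peptidase neprilysin, was at 8.03, 7.57 and 7.92 with vehicle and at 9.52, 9.48 and 9.74 with IWP2. Lrp2, the large endocytic receptor megalin of neuroepithelium and kidney, was at 8.75, 8.47 and 8.70 with vehicle and at 10.12, 10.10 and 10.08 with IWP2. None of these 3 genes had overlapping groups, which the ranking required, and every probe set of each was called higher. Slc38a4 (1.73), an amino acid transporter gene that is imprinted, Igsf11 (1.71), Slitrk5 (1.52), Cdh22 (1.46) and the sphingosine phosphate receptor gene S1pr3 (1.26) followed. Of 281 ion channel genes 38 rose and 23 fell, or 13.5% and 8.19%, which is below the share called over all genes in both directions. Only 94 of these 281 had a mean at or above the overall median in either group. Of 282 solute carrier genes 41 rose and 45 fell, both slightly below the shares of 16.6% and 16.8% over all genes. The transporter genes among the leading rises thus do not stand for a rise of that family. Of 108 glypican, syndecan, mucin and related surface genes 27 rose and 10 fell, above and below those shares.

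**Figure D2:**
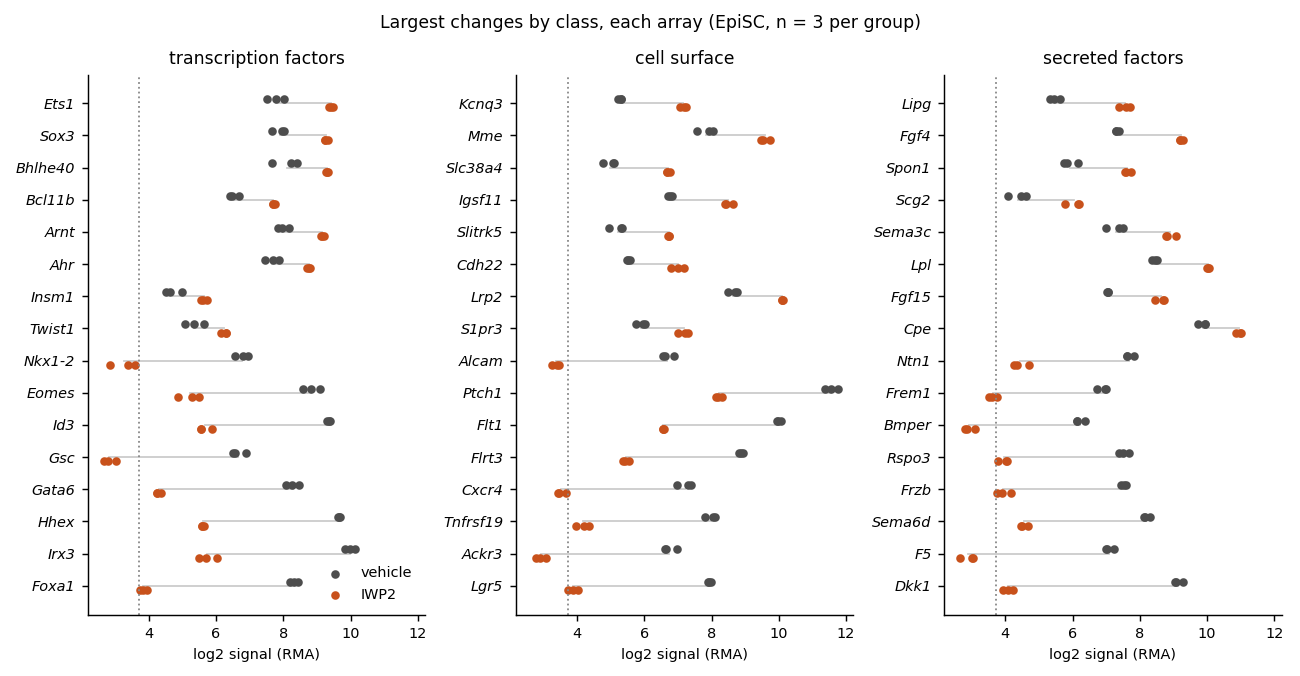
Each point is one array, with vehicle in grey and IWP2 in orange, for the 8 leading rises and 8 leading falls of each class, ranked as described above without the 20 genes passed over; the x axis is log2 signal and the dotted line is the lower quartile of all values. The groups of 3 are apart for every gene shown, as the ranking required. Many of the falls, such as Foxa1 at 3.73 to 3.93, end at the dotted line while no rise starts below it.

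Of 21 measured genes for secreted Wnt antagonists and R-spondins, 8 fell (38.1%, against 16.8% of all genes) and none rose. At least 2-fold, 6 fell (28.6%, against 2.81%). Dkk1, which blocks the Wnt coreceptor, was at 9.08, 9.04 and 9.29 with vehicle and at 4.21, 4.09 and 3.94 with IWP2, a difference of -5.05 ± 0.150. Frzb, a secreted decoy of the frizzled type, fell by 3.58 and on its other probe set by 3.03. Rspo3, which strengthens Wnt signals through Lgr receptors, also fell by 3.58, but the second probe set of that gene was not called. Bmper (-3.29), Fst (-2.97) and Chrd (-1.57), which bind BMPs or activins outside the cell, fell too. Among the 23 antagonists of BMP, Nodal and activin, 9 fell (39.1%) and 1 rose.

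Ligands of the TGF-beta family gave 9 falls (29%, against 16.8% of all genes) and no rise among 31 measured. Bmp7 was at 7.32, 6.79 and 7.35 with vehicle and at 5.80, 5.64 and 5.83 with IWP2. Bmp4, at 6.31, 6.59 and 6.65 with vehicle and at 5.65, 5.81 and 5.51 with IWP2, fell by 0.86 ± 0.101. Nodal, the ligand that keeps the epiblast pluripotent, was at 9.64, 9.85 and 9.64 with vehicle and at 9.50, 9.52 and 9.49 with IWP2. Its arrays did not overlap, but the difference of -0.20 ± 0.073 was not called (limma adjusted p = 0.056), and these cells received ActivinA, which acts through the same receptors. Genes that answer to BMP fell in part. Of 22 measured, 11 fell (50%, against 16.8% of all genes) and 1 rose, and among them Id1 (-2.10) and Id2 (-1.81) fell. When genes under the median signal were left out, 7 members fell, but fewer were then measured. In either group, 13 of the 22 had a mean at or above that median.

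Genes for FGF ligands moved in both directions. Fgf4, a ligand of the early epiblast, was at 7.30, 7.38 and 7.29 with vehicle and at 9.28, 9.19 and 9.18 with IWP2, a rise of 1.89 ± 0.054. All 4 of its probe sets were called higher, and the smallest rise among them was 0.545. Fgf15 was at 7.05, 7.07 and 7.02 with vehicle and at 8.72, 8.69 and 8.45 with IWP2. Both ligands rose by more than 2-fold and without overlap. Fgf8, the streak and organizer ligand, was at 8.46, 8.46 and 7.99 with vehicle and at 5.61, 5.63 and 5.57 with IWP2. Fgf5, the classical marker of the primed epiblast, fell by 2.48 ± 0.120 but stayed at 8.26 to 8.53, above the median of the array. Of 22 FGF ligand genes 6 rose (27.3%) and 3 fell (13.6%). On a list of ERK kinase feedback and immediate early genes, 31 of 56 fell (55.4%, against 16.8% of all genes) and 6 rose. Sgk1 (-3.91), Dusp4 (-3.10), Egr1 (-2.39) and Fos (-1.95) were among the falls, and Gadd45b (1.09) and Rgs2 (0.96) among the rises. The part of FGF signals in these changes was not tested. The rises of that list are 10.7% of its members, below the 16.6% of all genes.

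Leading secreted rises included, beside the FGF ligands and Sema3c, lipases and products of secretory granules. Lipg, the endothelial lipase, was at 5.44, 5.32 and 5.64 with vehicle and at 7.39, 7.58 and 7.70 with IWP2, a difference of 2.09 ± 0.123. Lpl, lipoprotein lipase, was at 8.51, 8.36 and 8.45 with vehicle and at 10.02, 10.004 and 10.05 with IWP2. The granule proteins Scg2 (1.65) and Cpe (1.08), a prohormone-processing enzyme, rose, while Chga, another granin, was at 8.43, 8.67 and 8.36 with vehicle and at 5.76 on each IWP2 array. The other probe set of Cpe, at 0.26, was not called. Of 64 hormone and neuropeptide genes 4 rose (6.25%) and 12 fell (18.8%), below and near the shares of all genes. Spon1, a matrix protein of the floor plate, rose by 1.72, while 1 other of its 4 probe sets was called, at 0.37. The coagulation factor gene F5 (-4.19), the netrin gene Ntn1 (-3.26, called on 1 of 2 probe sets) and the basement membrane gene Frem1 (-3.26) were among the leading secreted falls. Igf2, a growth factor gene that is imprinted, was at 9.66, 9.26 and 9.92 with vehicle and at 6.99, 6.95 and 7.01 with IWP2. Of 84 laminin, fibronectin and other matrix glycoprotein genes 25 fell (29.8%, against 16.8% of all genes) and 6 rose. Of 42 collagen genes 11 fell (26.2%) and 2 rose.

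Outside the 3 classes, the leading falls by the same ranking included enzymes as well as the keratins. Cyp26a1, which breaks down retinoic acid, was at 9.80, 10.001 and 10.17 with vehicle and at 5.14, 4.81 and 4.98 with IWP2, a difference of -5.02 ± 0.165. Rarb, a receptor gene that retinoic acid induces, fell by 2.61 ± 0.078, while Crabp2 (0.86) and Dhrs3 (0.72), a retinoid-binding protein and a retinal reductase, rose. Of 25 genes of retinoid handling and response 4 rose and 5 fell, shares near the 16.6% and 16.8% of all genes. Tph1, the peripheral enzyme of serotonin synthesis, fell by 4.43 and Nt5e by 4.49. Other probe sets of Nt5e were at -0.56, called, and at 0.05, not called. Leading rises outside the classes were those of Lin28b, a brake on let-7 miRNA maturation, at 3.50, 2.94 and 3.18 with vehicle and 4.88, 5.18 and 5.96 with IWP2, and of Doc2a (2.02) and Syt13 (2.01), both calcium-sensor or synaptotagmin-like proteins of vesicles. Cpt1a, the gate enzyme of fatty acid entry into mitochondria, rose by 1.91 ± 0.098, with its other sets at 1.37 and 2.17.

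Genes of antigen processing and of the interferon response made the list with the lowest median among the 34 function lists. These genes include the immunoproteasome subunits, which cut peptides for display, and the effectors that interferons induce through Stat and Irf factors. Of 37 measured, 19 fell (51.4%, against 16.8% of all genes), 13 of them at least 2-fold, 5 rose and 13 did not pass, and their median was -0.43. Ifitm1, a membrane protein that is also a known marker of the early streak and germ cell precursors, was at 9.77, 10.12 and 9.86 with vehicle and at 5.76, 5.56 and 5.67 with IWP2. Gbp2, a guanylate-binding protein, was at 9.32, 8.98 and 9.58 with vehicle and at 4.72, 5.10 and 4.95 with IWP2, a difference of -4.37 ± 0.194. These 2 falls of over 16-fold had no overlap, and the probe sets of Gbp2 may also bind related members of its family.

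The falls covered several steps of the pathway. Usp18, a brake on interferon receptors, was at 6.75, 6.43 and 6.97 with vehicle and at 3.91, 3.55 and 3.67 with IWP2. Ifi35 fell by 2.86, with its other called sets at -1.09 and -0.73. The immunoproteasome genes Psmb8 (-2.05), Psmb10 (-1.55) and Psmb9 (-0.97) and the peptide trimming and loading genes Erap1 (-2.27) and Tapbp (-1.07) fell. The other probe set of Psmb8, at -0.09, was not called. Psmb8 and Psmb10 are the only 2 of 43 proteasome genes that fell at least 2-fold. Upstream factors moved less or the other way. Stat2 was at 4.91, 4.89 and 4.89 with vehicle and at 5.80, 5.57 and 5.84 with IWP2, a rise of 0.84 ± 0.081, and Irf1 fell by 0.71 ± 0.072. Irf9 was called at -0.43, a call that was lost without any one of 5 of the 6 arrays. Irf7 (0.08), Ifit1 (-0.33) and Mx1 (0.11) were not called and lay near the floor. The class I gene H2-K1 (-0.14) was not called. H2-D1 (0.24) and B2m (0.27), the light chain of class I, were called higher, and each call was lost without any one of 4 of the 6 arrays. Probe sets of the class I genes may bind their near-identical copies.

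Promoters of this list often held the letters GAAA repeated after any 2 bases, the core that Irf and Stat complexes are known to bind, on either strand of the same RefSeq windows. They were found for 14 of 31 genes of the list with a promoter in the table, or 45.2%, against 3.63% of all 14452. Within the list their presence did not follow the direction: 7 of 17 genes that fell held them, 3 of 5 that rose and 4 of 9 that were not called. Of the genes that fell at least 2-fold over the whole array 7.49% held them, and of those that rose at least 2-fold 2.46%. Windows of 4 genes that fell and 2 that rose are given to show that the same letters stand in both, 5′ to 3′ on the gene's strand with the motif or its complement in capitals.
Gbp2 (fell), chr3:142620584-142620633, plus strand: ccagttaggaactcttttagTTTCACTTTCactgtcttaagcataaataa
Gbp3 (fell), chr3:142559979-142560028, plus strand: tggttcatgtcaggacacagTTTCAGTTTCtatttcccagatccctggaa
Erap1 (fell), chr13:74639829-74639878, plus strand: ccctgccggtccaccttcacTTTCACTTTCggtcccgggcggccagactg
Ifih1 (fell), chr2:62646206-62646243, minus strand: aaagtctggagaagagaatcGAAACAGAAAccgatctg
Stat2 (rose), chr10:128270256-128270305, plus strand: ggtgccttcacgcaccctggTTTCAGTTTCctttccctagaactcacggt
B2m (rose), chr2:122147528-122147577, plus strand: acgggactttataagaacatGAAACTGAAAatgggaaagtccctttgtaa
A match of letters describes the window and does not show that a factor was bound.

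**Figure D3:**
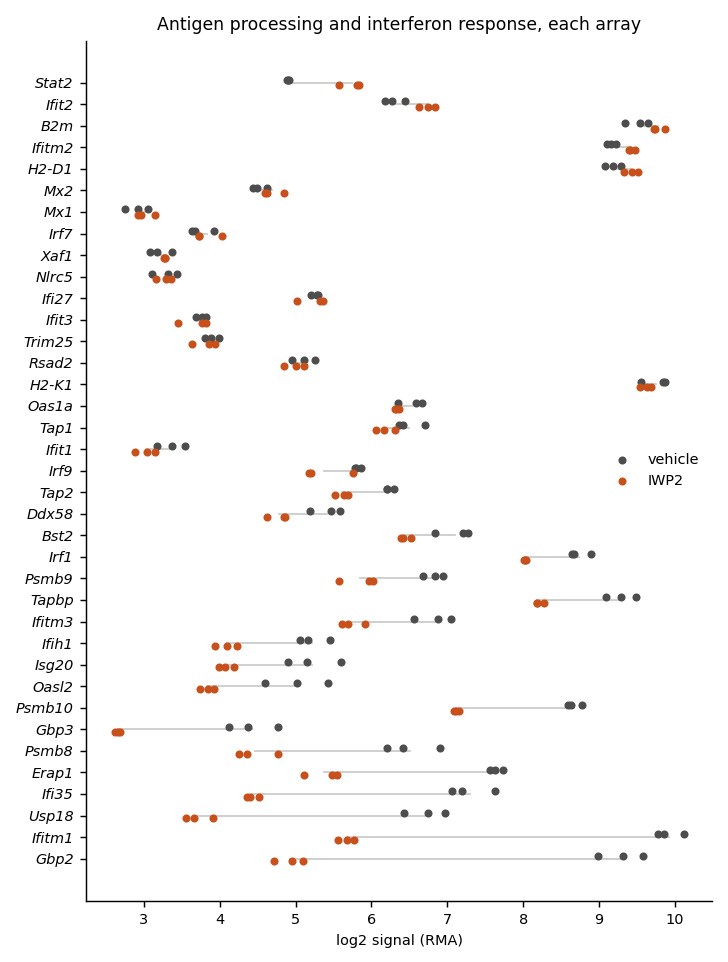
Each point is one array on the log2 scale (x axis), vehicle grey and IWP2 orange, for the 37 measured genes of antigen processing and interferon response, ordered from the largest rise to the largest fall. Genes at the bottom, such as Gbp2, Ifitm1 and Usp18, have widely separated groups, while 13 genes in the middle were not called.

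Cell division genes rose slightly. Of 66 measured genes of mitosis and the spindle, 51 rose (77.3%, against 16.6% of all genes), none fell and 15 did not pass, and the median was 0.32, with no change of 2-fold. Aspm, a spindle pole protein, was at 9.71, 9.57 and 9.76 with vehicle and at 10.29, 10.27 and 10.35 with IWP2, and all 5 of its probe sets were called higher. Ccnb2, a mitotic cyclin, was at 10.61, 10.41 and 10.72 with vehicle and at 11.22, 11.18 and 11.28 with IWP2. Differences of this size were beyond the replicate spread of both genes. Of 52 DNA replication genes 23 rose (44.2%) and 3 fell. The G1 regulators did not share the direction. Ccnd2, a D-type cyclin, was at 9.66, 9.60 and 9.75 with vehicle and at 7.70, 7.64 and 7.67 with IWP2, and all 7 of its probe sets fell. The cell cycle inhibitor gene Cdkn2b fell by 2.93 ± 0.091 and Cdkn1a by 0.96, while Cdkn1b (0.66) and Rb1 (0.93, called on 1 of 2 probe sets) rose.

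Genes of ribosome production fell slightly while those of the ribosome itself did not. Of 49 nucleolar ribosome biogenesis factors 33 fell (67.3%) and 1 rose, with a median of -0.24 and none past 2-fold. Nop2, a methyltransferase of ribosomal RNA, was at 8.74, 9.01 and 8.60 with vehicle and at 8.09, 8.18 and 7.96 with IWP2. Of 44 cytosolic ribosomal protein genes 1 fell and none rose, by limma, and their median was 0.01. Of 75 mitochondrial ribosomal protein genes 29 fell (38.7%, against 16.8% of all genes) and 5 rose. The count of falls depends on single arrays: 18 fell without vehicle replicate 2 and 15 without IWP2 replicate 3. Mrpl20, at 10.27, 10.47 and 10.30 with vehicle and at 9.77, 9.74 and 9.41 with IWP2, had the largest fall of these.

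Many neuronal and lipid genes rose. Of 43 genes of the neuronal cytoskeleton, vesicles and growth cones, 23 rose (53.5%) and 6 fell, with a median of 0.29. Syt4, a synaptotagmin, was at 4.83, 4.88 and 4.56 with vehicle and at 6.38, 6.51 and 6.67 with IWP2. Gpm6a, a neuronal membrane glycoprotein, rose by 1.26 ± 0.123, but its homologue Gpm6b was at 8.29, 8.39 and 8.30 with vehicle and at 5.50, 5.45 and 4.95 with IWP2. Fabp7 (-1.71), a fatty acid carrier of radial glia, fell also. Members of one family thus moved apart, and of 14 measured neurectoderm markers 2 rose (14.3%) and 5 fell (35.7%). Among lipid genes, 16 of 25 of sterol synthesis and uptake rose (64.0%, against 16.6% of all genes) and 2 fell. Of 29 genes of fatty acid synthesis 13 rose (44.8%) and 6 fell (20.7%). Elovl6, an elongase of long fatty acids, was at 10.55, 10.61 and 10.55 with vehicle and at 11.58, 11.65 and 11.68 with IWP2, and Lpin1, a phosphatidate phosphatase, rose by 1.28 ± 0.081. The sterol exporter gene Abca1 fell by 2.46, and its other 2 probe sets were not called.

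Cilium genes fell in a minority, and those that fell far belong to motile cilia, which the node carries. Of 67 measured, 20 fell (29.9%, against 16.8% of all genes) and 7 rose. At least 2-fold, 7 fell (10.4%, against 2.81%). Foxj1, the master gene of motile cilia, was at 6.11, 6.19 and 6.11 with vehicle and at 4.56, 4.29 and 4.54 with IWP2. Nme5 (-2.30), Rsph4a (-1.89), Pifo (-1.73) and Rsph9 (-1.38), parts or partners of motile axonemes, fell with it. Of 17 measured node, notochord and floor plate genes, one of which is Foxj1, 15 fell (88.2%) and none rose. The metallothionein genes Mt2 (-2.11) and Mt1 (-1.76, called on 1 of 2 probe sets), which bind zinc, and the glutathione transferase gene Gstm5 (-3.05) fell as well. Of the 37 genes of that list 15 fell (40.5%) and 6 rose (16.2%). Of 38 imprinted genes 13 fell (34.2%) and 8 rose (21.1%). Peg3 was at 12.23, 12.06 and 12.26 with vehicle and at 10.22, 10.27 and 10.26 with IWP2. Bmi1, a Polycomb gene, fell by 1.09 ± 0.057 and on its other probe set by 1.25, and was the only one of 41 DNA methylation and Polycomb genes to change 2-fold.

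**Figure D4:**
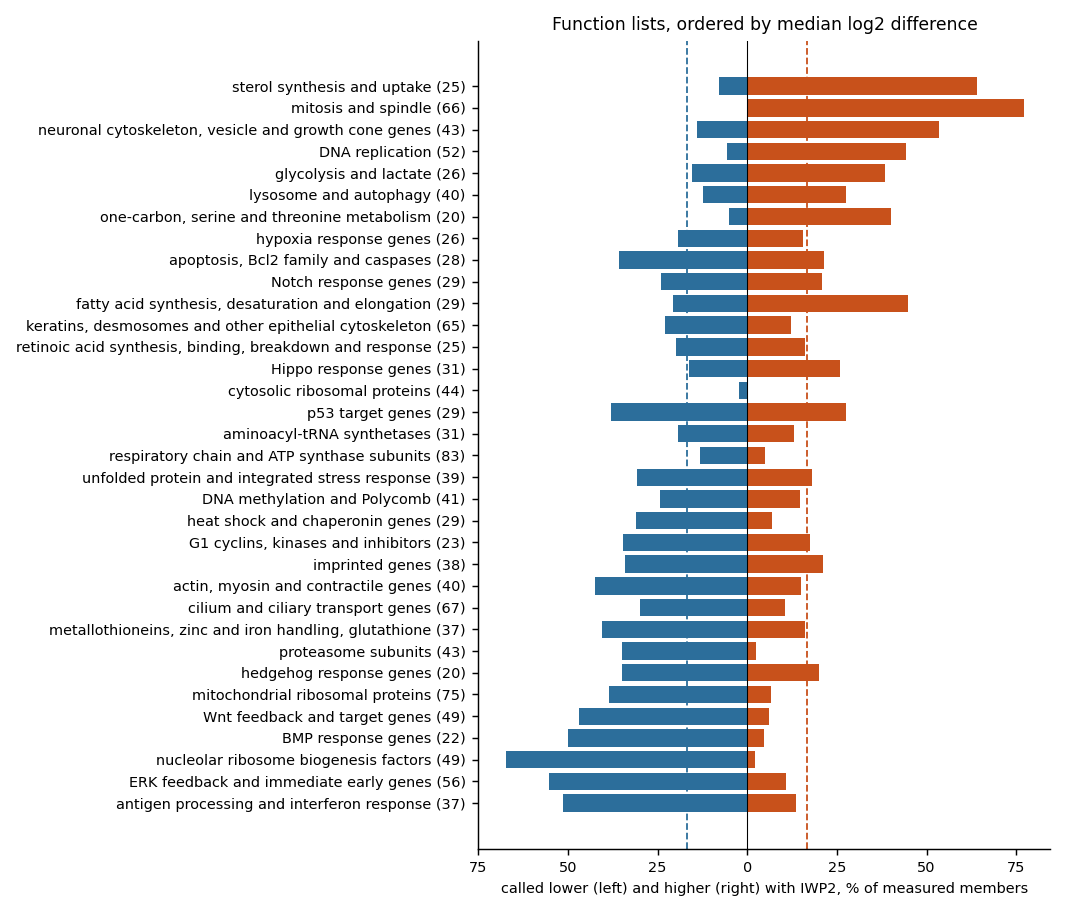
Bars show the percentage of measured members (x axis, number in brackets) called lower (left, blue) or higher (right, orange) with IWP2 for the 34 function lists, ordered by the median log2 difference. Dashed lines mark the shares over all genes, 16.8% lower and 16.6% higher; the interferon list is at the bottom with 51.4% lower, and mitosis genes reach 77.3% higher.

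Markers of the other cells that the cultures could hold moved with these changes, in both directions. The summed linear signal of 17 definitive endoderm markers was 4916 to 5228 on vehicle arrays and 409 to 426 on IWP2 arrays, with 12 members lower and none higher. That of 17 node, notochord and floor plate markers was 23800 to 26010 and 6751 to 6856. Krt8, a keratin of simple epithelia, went from a mean of 12.8 to 8.0 log2 and makes up a large part of that fall. Cdh2 stands both in the node list and in the EpiSC list. The 20 markers of primitive streak and mesoderm gave 2364 to 3163 and 506 to 529, with 8 lower and 1 higher, and the 12 trophoblast markers gave 944 to 1067 and 267 to 288, with 5 lower. Eomes, from a mean of 8.8 to 5.2 log2, stands in the endoderm, streak and trophoblast lists and makes up a large part of the trophoblast fall. The lists share members, so their sums are not independent. Fibroblast and feeder markers gave 2910 to 4094 and 1469 to 1606 over 16 genes, 7 lower and 2 higher. Acta2, from a mean of 11.2 to 9.8, makes up most of that fall. The other probe sets of Acta2, at -0.29 and -0.15, were not called. Germ cell markers, 11 genes, gave 589.8 to 744 and 209 to 221, with 2 higher, 2 lower and 5 below the lower quartile in both groups. Kit, from a mean of 8.6 to 5.5 log2, makes up most of that fall. The 14 neurectoderm markers gave 1478 to 1622 and 1335 to 1462, and the 16 markers of EpiSCs themselves 19160 to 21680 and 17390 to 18200, with 6 members higher and 5 lower. Sums of 2 other lists were higher, each with as many members called lower as higher. The 17 markers of naive ESCs gave 707 to 762 and 1037 to 1079, with 4 higher and 4 lower and 7 below the lower quartile in both groups. Fgf4, from a mean of 7.3 to 9.2 log2, rose on the linear scale by more than that sum. The 11 neural crest markers gave 957 to 1091 and 1380 to 1448, with 3 higher and 3 lower. Ets1, from a mean of 7.8 to 9.4, makes up most of that rise. Neither sum thus shows a rise of its list as a whole. The groups did not overlap for any of these 10 sums. Blood and endothelium markers, 14 genes, gave 297 to 317 and 285 to 298, sums that overlap. The part of these markers in the falls of receptors, ligands, keratins and interferon genes was not tested.

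Probe sets of one gene mostly pointed the same way where they had signal. Of 104 genes that rose at least 2-fold and had several probe sets, all sets were called higher for 59 (56.7%) and any set was called lower for 3. Of 251 such falls, all sets were called lower for 125 (49.8%) and 1 gene had a set called higher. The difference between sets went with their level. Of the other sets of the falling genes, 172 of 189 at or above the median signal in their higher group were called lower (91.0%), but 101 of 251 below it (40.2%). For rising genes these were 90 of 97 (92.8%) and 51 of 104 (49.0%). Hs3st3b1, an enzyme gene of heparan sulfate, is an example, with -4.02 on 1 set and no call on the other 3, all with means of 4.52 or lower.

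The set with the highest mean was not always the one with the larger change. Sox17 fell by 3.35 on the set used, from 7.80 to 4.45, and by 6.53 on its other set, from 9.20 to 2.67 (means of 3 arrays), though the latter can bind other transcripts. Shh fell by 6.65 on the set used and by 1.20 on the other, whose vehicle mean was 4.75. Both pairs of sets were called in the same direction. Genes whose sets were called in opposite directions were rare, and in none did both directions exceed the 0.64 of Map3k20, though some of their single sets passed 2-fold. Of genes with several sets, 3.52% of those called higher and 3.38% of those called lower had a set called the other way. Map3k20, a kinase gene with alternative protein forms, gave 0.77 on one set and -0.64 on another, and Lamp2, a lysosomal membrane gene with alternative last exons, gave 0.63 and -0.63. Tdrd3 gave -0.62 on the set used and 0.82 and 0.37 on its others, so the direction of that gene depends on the set.

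**Figure D5:**
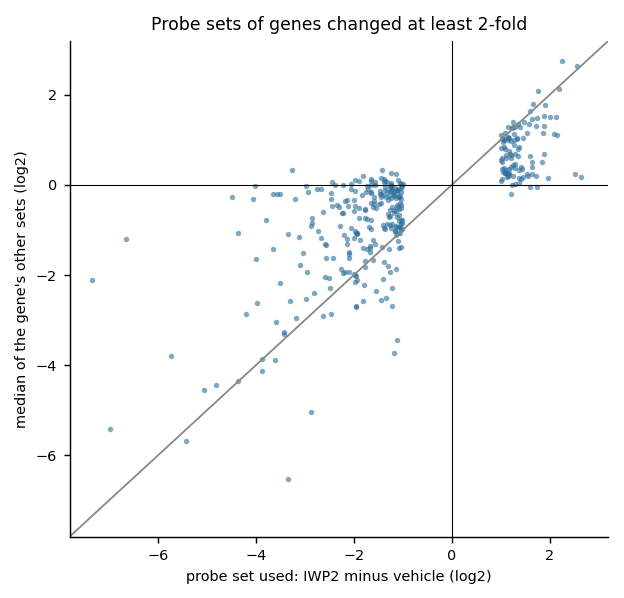
Each point is one gene changed at least 2-fold that has several probe sets, with the log2 difference of the set used (x axis) and the median of its other sets (y axis); the line marks equality. Most points lie between the line and 0, with medians of 0.69 for the other sets of rising genes against 1.29 on the set used, and -0.76 against -1.67 for falling genes.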

How the data were processed

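Biotin-labelled cRNA from total RNA of the cells was read on Affymetrix arrays of the mouse genome, per the labels' protocols. The authors deposited log2 values for 45101 probe sets, and the submitters' processing notes name RMA (background correction, quantile normalization and summarising of probes) and limma, without versions. Such values give no detection calls and hide a change of total RNA per cell. No batch was examined, as no scan date was used.

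Probe sets were named from the platform annotation: 34945 had 1 symbol, 932 several, and 9160 none, beside 64 control sets. Among the first, 34741 matched RefSeq gene identifiers of GRCm38.p6, and 0 had changed. The 18193 genes, 9010 of them with several sets, were fitted in R 4.3.3 with limma 3.58.1 (group means over all 9 arrays, lmFit and eBayes, two-sided, 6 residual degrees of freedom, 9.58 after moderation). Errors are standard errors of the log2 difference, n = 3 per group. Probe-set agreement came from a fit of all single-symbol sets, adjusted over those.

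Members and the 86 lists were chosen with earlier results of these data known, and 135 genes that a symbol pattern had caught wrongly were removed after values were seen. Named genes are the 8 largest changes per direction in each class and outside them (called, without overlap, a mean of the higher group not below 5.24, which is the overall median, no set ending in _x_at, no Riken or Gm name, leaving out 20 genes already known as the largest). Added to these are up to 3 per direction of each list, genes with at least 3 sets all called alike, the 6 with the largest opposed sets, and genes fixed by name. Members of the interferon, Wnt, BMP, cilium, keratin, homeobox and ligand lists outside that rule, Nodal, Epcam, Pknox2 and the repeated sets of Sox17 and Shh were chosen after their values were seen. The test was checked on simulated data. Alternatives were other probe-set rules, leaving out genes of low signal, adding 32 to the linear signal, rescaling by quantiles, loess or medians, other variance models, a replicate block, an adjusted p under 0.01, treat, and leaving out each array. Nothing was left out of the 9 arrays.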

Additional observations from a re-analysis of the deposited data

How the results depend on the processing

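Counts of called genes were stable to scaling, probe-set rule and variance model, and moved by over 1.5 times with thresholds and at low signal. At an adjusted p under 0.01 limma called 3886 genes, 1847 higher and 2039 lower, with 18 nucleolar and 14 mitochondrial ribosomal falls. The test against a minimum log2 difference of 1 called 345 genes, 51 higher and 294 lower. It called 42 surface and 43 secreted falls, 8 interferon, 5 BMP, 8 ERK and 4 cilium falls, 1 neuronal rise, and 0 mitosis rises and 0 nucleolar or mitochondrial ribosomal falls, lists whose members changed by less than that. With an offset of 32, 347 genes passed 2-fold, 84 higher and 263 lower, with 36 transcription factor, 42 surface and 39 secreted falls. Among genes with a mean at or above the median signal, 7 BMP response genes fell, of fewer measured. Agreement of probe sets by sign alone held for 290 of the genes past 2-fold, against 184 by calls. Without single arrays, 4949 to 5600 genes were called (2463 to 2803 higher, 2444 to 2858 lower) and 664 to 698 passed 2-fold, 155 to 188 higher and 509 to 525 lower. On the same basis mitochondrial ribosomal falls numbered 15 to 29, nucleolar falls 22 to 31, mitosis rises 46 to 49 and interferon falls 17 to 19. The cause of these shifts was not tested. Deviations from the group means correlated at -0.06, 0.04 and 0.04 between arrays of the same replicate number. The highest value, of vehicle replicate 1 with IWP2 replicate 3, was 0.07. Values this small from 3 arrays per group cannot show whether cultures were paired, which the labels do not say. With the replicate number as a block the 6 EpiSC arrays gave 5321 calls and 15 mitochondrial ribosomal falls. Of 166 genes named, 153 kept their direction and call in every setting that held them, other than the minimum-difference test. A gene absent from a setting was counted as kept there. Where genes of low signal were left out, 140 named genes were unchanged, 2 gained a call and the rest were absent. The minimum-difference test ended the call of 57. In 1 gene the direction reversed: Tdrd3 was at 0.19 as the mean of its probe sets. Nodal was called lower as the mean of its probe sets, at -0.28. Signals near the floor set the limit, since 103 of the 512 falls ended below the lower quartile.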

Other observations

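The interferon genes also differed among the vehicle cultures themselves. Of the 13 genes of antigen processing and interferon response that fell at least 2-fold with IWP2, 11 (84.6%) had their lowest vehicle signal on replicate 2 and their highest on replicate 3, against 21.4% of all genes and 25.4% of all genes that fell at least 2-fold. The median difference between these 2 arrays was 0.54 log2 over those 13 genes and 0.01 over all genes. Psmb8 was at 6.42, 6.21 and 6.90 on vehicle replicates 1, 2 and 3, and Gbp3 was at 4.37, 4.12 and 4.77. This was seen after the values were known and was not tested, and genes of one pathway are not independent.

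Of 9160 probe sets without a gene symbol, 585 were called higher and 567 lower by limma, 38 and 92 of them at least 2-fold.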
